A study of Macaca mulatta with 12 samples.

Results

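Cell cycle and DNA replication genes were followed in blood macrophages of rhesus macaques, as a list of 46 genes of which 42 were found among the 32386 genes of the count table. A member was taken by its symbol (3 genes), by an identifier that a name table pairs with the symbol (38 genes) or by a symbol in the authors' deposited tables (1 gene, CDKN1A). MAD2L1, CCND2, CDK2 and CDKN1B were not matched and are not analysed here. The members were divided by role into 15 replication genes of S phase, 19 genes of G2 and mitosis, and 8 genes of G1 entry and its brakes.

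RNA was sequenced from CD14+CD16-CD163+ cells sorted from blood of animals that had received back their own mobilized CD34+ cells after CRISPR/Cas9 treatment, in a model of TET2-mutant clonal hematopoiesis. Cells were taken 4.5 months (early) or 19 months (late) after transplant and kept for 8 h without stimulus (CTL, here unstimulated) or with lipopolysaccharide at 100 ng/ml and interferon-gamma at 20 ng/ml (ACT, here stimulated). The protocol names both agents, and the treatment label the first alone. Each of the 4 groups, early unstimulated, early stimulated, late unstimulated and late stimulated, has 3 libraries. The edit and the transplant are shared by all 4 groups, and the labels give neither the share of edited cells nor the number, age or pairing of the animals. Replicates may therefore be wells of 1 animal, so a p-value here reflects the scatter of the libraries, possibly a technical one. Dates of preparation and sequencing are not in the labels, and time after transplant cannot be told apart from a batch.

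A dividing cell passes from G1, where D and E cyclins with CDK4, CDK6 and CDK2 release E2F factors from RB proteins, into S phase, where the MCM helicase unwinds DNA and PCNA clamps the polymerases to it. Mitosis follows under cyclin B with CDK1, the Aurora and Polo kinases and the spindle checkpoint. Monocytes and macrophages of the blood are mostly outside the cycle, held there in part by the CDK inhibitor p21 (CDKN1A), and transcripts of dividing cells are scarce in them. Toll-like receptor ligands and interferon-gamma are known to arrest macrophage growth.

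Library totals ran from 3910680 to 12972505 counts. Levels are in CPM, each gene's count scaled to its library's total, and are not corrected for gene length, so they serve to compare libraries. A gene's share of a sum and its range of level, given below, depend on its length as well. Library 1 of the early stimulated group stood apart from the others of its group: its counts differed from theirs by a chi-square of 28.4 and 29.3 per degree of freedom, against 2.82 between the other pair and at most 10.8 within the other groups. Counts of members in comparisons that use this library are given with and without it, as are the log2 fold changes of the members named as rising or falling in them. Thinned to 3910680 counts, early libraries held a count in 33.1 to 35.2 of the 42 members and late libraries in 39 to 40.5 on average. All genes moved with this: 13621 to 13959 had a count in early and 17470 to 18691 in late libraries at that depth.

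Markers of cell types were looked up. Those of CD14 monocytes and macrophages formed a joint list, which cannot tell macrophages from monocytes. Of its 12 genes, 11 had a row in the count table. CD14 itself stood at 2268 to 2413 CPM at 4.5 months and 1417 to 1754 CPM at 19 months without stimulus. Of the 11 genes, 9 were lower and 2 higher late in unstimulated cells, by the test described below, and 9 were lower in stimulated cells. Their sum without stimulus was 12942 to 13349.8 CPM early and 6710.1 to 7279 CPM late. Markers of blood progenitors, a dividing cell type, summed over 4 genes to 6.79 to 11.5 and 5.63 to 7.75 CPM in early and late unstimulated and to 4.35 to 7.86 and 6.69 to 10.8 CPM in early and late stimulated libraries. FLT3 made up most of the early sum and fell in unstimulated cells (-1.06 ± 0.36, adjusted p = 0.0194), with 5.76 to 8.53 CPM early and 2.05 to 4.22 CPM late. The other 3 leaned the other way: GATA2 stood at 0.367 to 1.32 CPM early and 1.53 to 1.77 CPM late without stimulus, and MYB rose in stimulated cells, with 0.309 to 0.771 CPM early and 2.37 to 4.0 CPM late (2.41 ± 0.57, adjusted p = 0.00186). CD34 was at 0 in 2 of 3 libraries of either early group, at 1.28, 0.408 and 0.617 CPM in late unstimulated and at 0.387, 0.261 and 0.863 CPM in late stimulated libraries. Erythroid markers, 5 genes, without stimulus ranged from 0.0917 to 0.203 CPM early and from 1.53 to 2.01 CPM late in sum, and CD3E, of T cells, did not exceed 0.647 CPM in any library. T cell markers (6 genes) summed without stimulus to 277 to 303.3 CPM early and 316.8 to 347.5 CPM late, with none called. IL7R made up nearly all of that sum, at 274 to 300.8 CPM early and 314.4 to 344.6 CPM late. B cell markers (6 genes) summed without stimulus to 4.03 to 5.12 CPM early and 4.35 to 8.18 CPM late. NK cell markers (5 genes) summed to 12.2 to 14.9 CPM early and 17.3 to 22 CPM late without stimulus, with GZMB called higher. The NCR1 groups overlapped, at 8.53 to 10.9 CPM early and 7.62 to 13 CPM late. NKG7 reached 0.642 CPM early and 0.308 CPM late without stimulus, and KLRD1 0.64 CPM early and 0 late. Neutrophil markers (8 genes) summed without stimulus to 701 to 746 CPM early and 366 to 424 CPM late, but 2 were called higher and 2 lower. CSF3R, at 547 to 606 and 267 to 342 CPM, and CAMP, at 131 to 146 and 69.2 to 87 CPM, made up nearly all of that sum. LTF went the other way, from at most 0.183 CPM early to 1.02 to 1.7 CPM late. So did MMP8 (0.367 to 0.813 and 0.952 to 4.86 CPM) and ELANE (0 to 0.102 and 0.256 to 1.36 CPM). CD16 monocyte markers (3 genes) summed without stimulus to 43.4 to 48.6 CPM early and 13.9 to 18.7 CPM late. Dendritic cell markers (6 genes) summed without stimulus to 67.7 to 85.7 CPM early and 59.3 to 63.5 CPM late, with 1 called lower. CD1C, most of that sum, stood at 59.4 to 73.2 CPM early and 46.8 to 52.1 CPM late. XCR1 went the other way, at 0 to 0.16 CPM early and 1.08 to 1.79 CPM late. So did FCER1A, at 0 to 0.32 CPM early and 0.767 to 1.63 CPM late. The part of such cells in the results was not tested.

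Summed over each role, replication and mitosis members stood higher in late than in early libraries. The 15 replication genes summed without stimulus to 73, 89 and 85.3 CPM early against 97.4, 115 and 105 late, and with stimulus to 77.6, 63.4 and 71.4 CPM early against 97.3, 109 and 113 late. All 6 late sums lay above all 6 early ones, and stimulation left no gap between the groups of a time. The 19 mitosis genes summed without stimulus to 69.2, 67.7 and 66.8 CPM early against 88.2, 91 and 82.7 late, and with stimulus to 68.9, 76.3 and 78.4 CPM early against 103, 105 and 102 late. Here too the late sums lay above the early ones, and the late stimulated sums lay above the late unstimulated. With the TMM-scaled library sizes that the tests use, mitosis sums were 61.9 to 63 CPM in early unstimulated, 78.4 to 86.4 in early stimulated, 81 to 88.3 in late unstimulated and 102 to 104 CPM in late stimulated libraries. On that scale late lay above early within either condition, but the early stimulated and late unstimulated sums overlapped. Stimulation separated the early groups too. In plain CPM the mean mitosis sum went from 67.9 to 74.5 on early stimulation, while CCNB1 alone went from 8.05 to 25.6. The higher early stimulated sum is therefore no rise of the 19 genes at large. The replication sums kept all late libraries above all early ones on the TMM scale. In a bulk sample, a change in the number of cycling cells and a change in RNA per cell cannot be told apart.

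**Figure D1:**
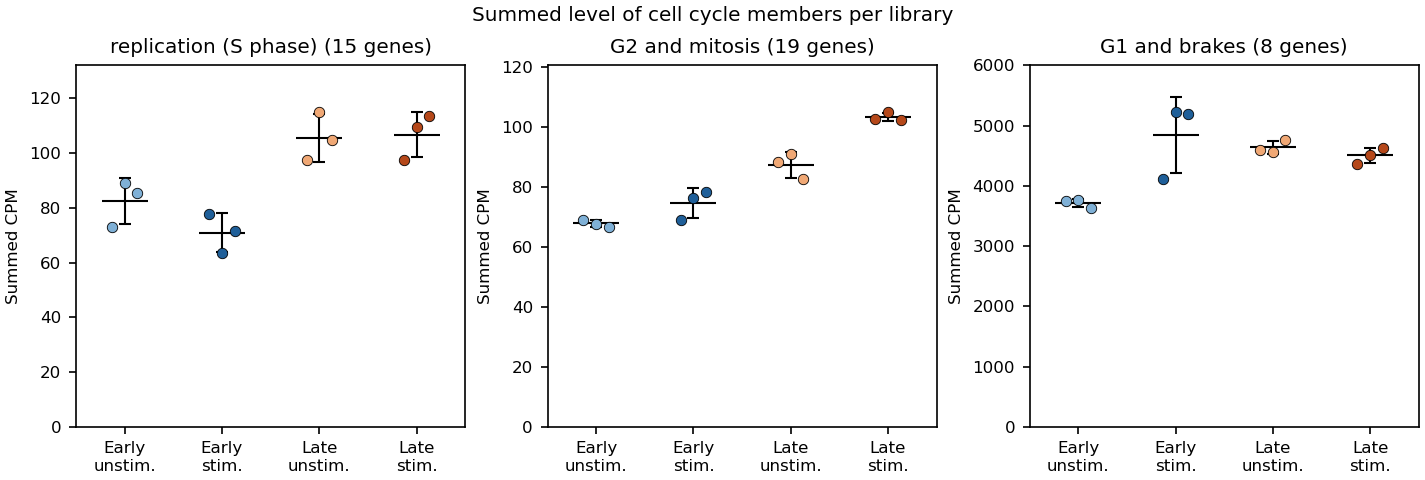
Summed CPM (vertical axis) of the replication, G2 and mitosis, and G1 and brakes members in each of the 12 libraries, by group (horizontal axis), with points for libraries, a long bar for the mean and whiskers for the SD. Replication sums ran from 63.4 to 89 CPM at 4.5 months and from 97.3 to 115 CPM at 19 months.

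PCNA alone made up 35.1% of the mean replication sum, CDC20 34% of the mitosis sum and CDKN1A 93.9% of the G1 sum. The plot of all members by library shows the late libraries high for most of the scarce members. Members with many counts were divided: PCNA and CCNB1 were higher late without stimulus, and MCM7, RRM1, CDC20 and PLK1 were not. Of the 42 members, 32 had enough counts to be tested, 13 of replication, 13 of mitosis and 6 of G1. The filter keeps a gene that is frequent enough in 1 group alone, so the 32 are not an even sample of the 42.

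**Figure D2:**
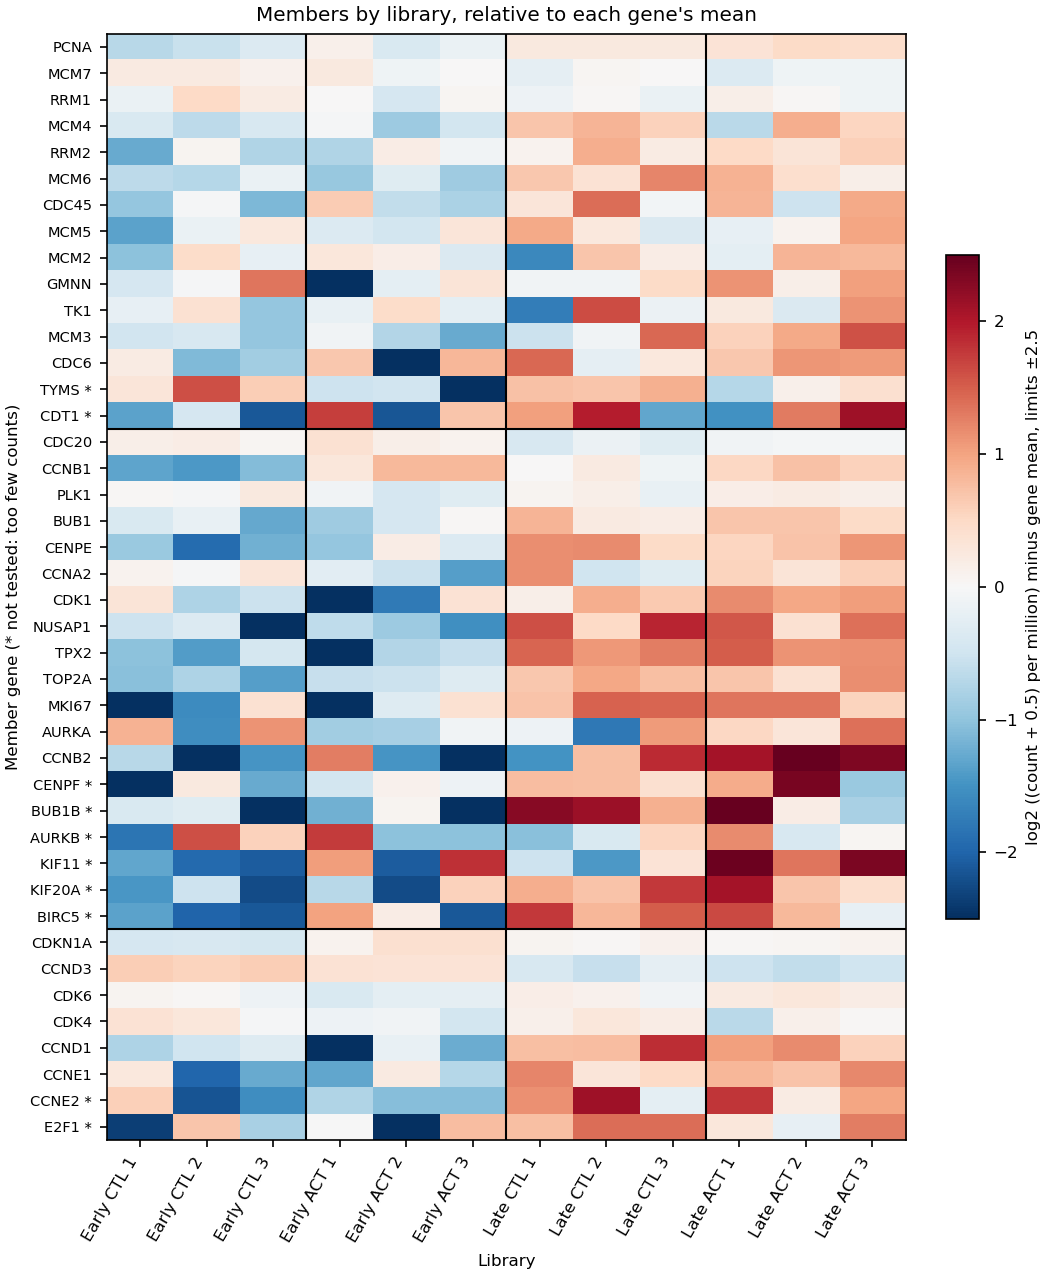
Level of each of the 42 members (rows, by role and falling mean) in each library (columns, by group), as log2 CPM with TMM-scaled library sizes and 0.5 added to each count, minus the gene's mean over 12 libraries, with red above and blue below the mean. Asterisks mark the 10 members with too few counts to be tested.

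In unstimulated cells at 19 months, 15 of 32 tested members were higher than at 4.5 months and 2 were lower. The test was edgeR's quasi-likelihood F test over all 11826 genes tested, with Benjamini-Hochberg adjustment and a threshold of 0.05. By the same test 20.9% of all genes tested were higher late and 19.8% were lower, 40.7% together. The median log2 fold change of the 32 members was 0.96, beside 0.02 for all genes tested. Of mitosis members 8 rose and 1 fell of 13 (median 1.33), of replication members 5 rose of 13 (median 0.81), and of G1 members 2 rose and 1 fell of 6 (median 0.29). By CPM alone, the groups did not overlap for 15 members, 12 higher and 3 lower, and for 53.2% of all genes tested, 22.8% higher and 30.4% lower.

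Among the replication genes the clamp gene PCNA was measured with most counts. It stood at 21.1, 23 and 26.5 CPM at 4.5 months and 37.3, 37.7 and 37.5 CPM at 19 months without stimulus. The groups did not overlap, and the log2 fold change was 0.76 ± 0.15, adjusted p = 0.000368 (SE, edgeR quasi-likelihood test here and below), a rise of 1.69-fold. PCNA (ENSMMUG00000013259) lies on chromosome 10 from 38007968 to 38014774 of build Mmul_8.0.1, per the authors' deposited table. MCM4, a subunit of the helicase, stood at 5.76, 4.77 and 5.59 CPM early and 11.3, 12.8 and 10.5 CPM late (1.20 ± 0.31, adjusted p = 0.00286). MCM6, from the same ring, stood at 2.72, 2.64 and 3.85 CPM early and 6.39, 5.31 and 9.56 CPM late (1.28 ± 0.33, adjusted p = 0.00277). Every late library was above every early one for both subunits. RRM2, the inducible subunit of ribonucleotide reductase, stood at 1.92, 4.98 and 2.75 CPM early and 4.6, 8.44 and 5.09 CPM late, and the groups overlapped (0.99 ± 0.34, adjusted p = 0.0225). CDC45, which joins MCM and GINS in the active helicase, stood at 1.12, 2.23 and 1.01 CPM early and 2.56, 5.71 and 2.01 CPM late, also with overlap (1.34 ± 0.51, adjusted p = 0.0374).

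The other helicase subunits did not pass the test. MCM3 was at a log2 fold change of 1.22 ± 0.65, adjusted p = 0.144, MCM5 at 0.53 ± 0.49, adjusted p = 0.403 and MCM2 at 0.21 ± 0.51, adjusted p = 0.767. MCM7 stood lower in every late library, 15.6, 19.2 and 18.7 against 23.2, 23.1 and 21 CPM, without passing (-0.23 ± 0.17, adjusted p = 0.307). TMM scaling, which sets the libraries' effective sizes from the bulk of genes, narrows that gap, since its factors were 1.08 to 1.10 in early unstimulated and 1.02 to 1.03 in late unstimulated libraries. RRM1, the other reductase subunit, was at -0.29 ± 0.21, adjusted p = 0.296, so the reductase subunits had opposite signs with a call for RRM2 alone. Licensing genes were scarce: CDC6, which loads MCM, was at 1.12 ± 0.85, adjusted p = 0.313, and GMNN, which blocks relicensing, at -0.45 ± 0.58, adjusted p = 0.571. TK1, which salvages thymidine, was at 0.81 ± 0.64, adjusted p = 0.332.

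Of the 5 replication calls, PCNA, MCM4 and MCM6 were made in all 19 alternatives. Without early unstimulated library 1 or 3, or without late unstimulated library 2, the count of replication members that rose was 3 of 13. Of all genes 18.5, 18.1 and 17.8% were higher in those fits. RRM2 lost its call without each of these libraries (adjusted p from 0.00528 to 0.21 over 19 alternatives). CDC45 lost it without them too, and with the replicate block, with the abundance trend removed and with DESeq2 (adjusted p from 0.0161 to 0.39 over 19 alternatives).

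Mitosis genes showed the largest fold changes of the list, nearly all from low levels. TPX2, which builds the spindle and activates Aurora A, stood at 0.64, 0.508 and 1.01 CPM at 4.5 months and 3.58, 2.86 and 3.24 CPM at 19 months without stimulus (2.19 ± 0.52, adjusted p = 0.00152). NUSAP1, a microtubule-bundling protein of the spindle, stood at 0.961, 1.12 and 0.0917 CPM early and 4.09, 1.9 and 5.09 CPM late (2.48 ± 0.59, adjusted p = 0.00167). CENPE, the kinetochore motor that aligns chromosomes, stood at 1.44, 0.711 and 1.19 CPM early and 5.88, 6.12 and 3.7 CPM late (2.33 ± 0.40, adjusted p = 6.36e-05). For these spindle genes no late library reached down to the highest early one. These levels rest on few reads: the 3 libraries together held 20 counts of TPX2 early and 56 late, 18 and 63 of NUSAP1, and 29 and 92 of CENPE. TOP2A, the topoisomerase that untangles sister chromatids, stood at 0.801, 1.02 and 0.642 CPM early and 2.56, 3.27 and 2.78 CPM late (1.89 ± 0.46, adjusted p = 0.00202). MKI67, the proliferation marker Ki-67, stood at 0, 0.203 and 0.917 CPM early and 1.02, 1.9 and 1.85 CPM late (2.00 ± 0.75, adjusted p = 0.0355). The MKI67 groups did not overlap, with 0 counts in 1 early library.

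CCNB1, cyclin B1, which drives entry into mitosis with CDK1, had the smallest p of the mitosis genes. It stood at 7.85, 7.21 and 9.08 CPM at 4.5 months and 18.4, 21.6 and 17.1 CPM at 19 months without stimulus (1.33 ± 0.19, adjusted p = 6.97e-06), a 2.52-fold rise with no overlap. CCNB1 (ENSMMUG00000018142) lies on chromosome 6 from 67311142 to 67323105 of Mmul_8.0.1, per the authors' deposited table. CDK1 itself stood at 2.88, 1.32 and 1.56 CPM early and 2.3, 4.08 and 3.39 CPM late and did not pass (0.94 ± 0.49, adjusted p = 0.129). BUB1, a kinase of the spindle checkpoint, stood at 4.0, 4.57 and 2.11 CPM early and 8.69, 5.71 and 5.55 CPM late (0.98 ± 0.32, adjusted p = 0.017). CCNB2, cyclin B2, had 2 counts over the early and 12 over the late libraries (2.97 ± 1.18, adjusted p = 0.0463), and 1 library of either group was at 0. The single mitosis member that fell was CDC20, which activates the anaphase-promoting complex, from 34.3, 35 and 31.1 to 21.5, 26.3 and 23.3 CPM (-0.40 ± 0.15, adjusted p = 0.036). CCNA2, cyclin A2 (0.08 ± 0.42, adjusted p = 0.905), PLK1 (-0.08 ± 0.20, adjusted p = 0.785) and AURKA (-0.46 ± 0.78, adjusted p = 0.671), the last 2 being mitotic kinases, did not pass.

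TPX2, NUSAP1, CENPE, TOP2A and CCNB1 were called in all 19 alternatives. BUB1 lost its call without early unstimulated library 3 or late unstimulated library 1 (adjusted p from 0.00742 to 0.123 over 19 alternatives). MKI67 lost it without early unstimulated library 1 or 2 or late unstimulated library 2 or 3, with the abundance trend removed and with DESeq2 (adjusted p from 0.00793 to 0.702 over 18 alternatives). CDC20 lost it without early unstimulated library 1 or 2 or late unstimulated library 1 or 3, with RLE or upper-quartile factors, with the abundance trend removed and with DESeq2 (adjusted p from 0.0112 to 0.17 over 19 alternatives). CCNB2 lost it without any 1 of 8 libraries: all 3 early unstimulated, late unstimulated 2 and 3, and all 3 late stimulated. It was also lost with the replicate block, with the abundance trend removed and with DESeq2 (adjusted p from 0.0246 to 0.68 over 18 alternatives).

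**Figure D3:**
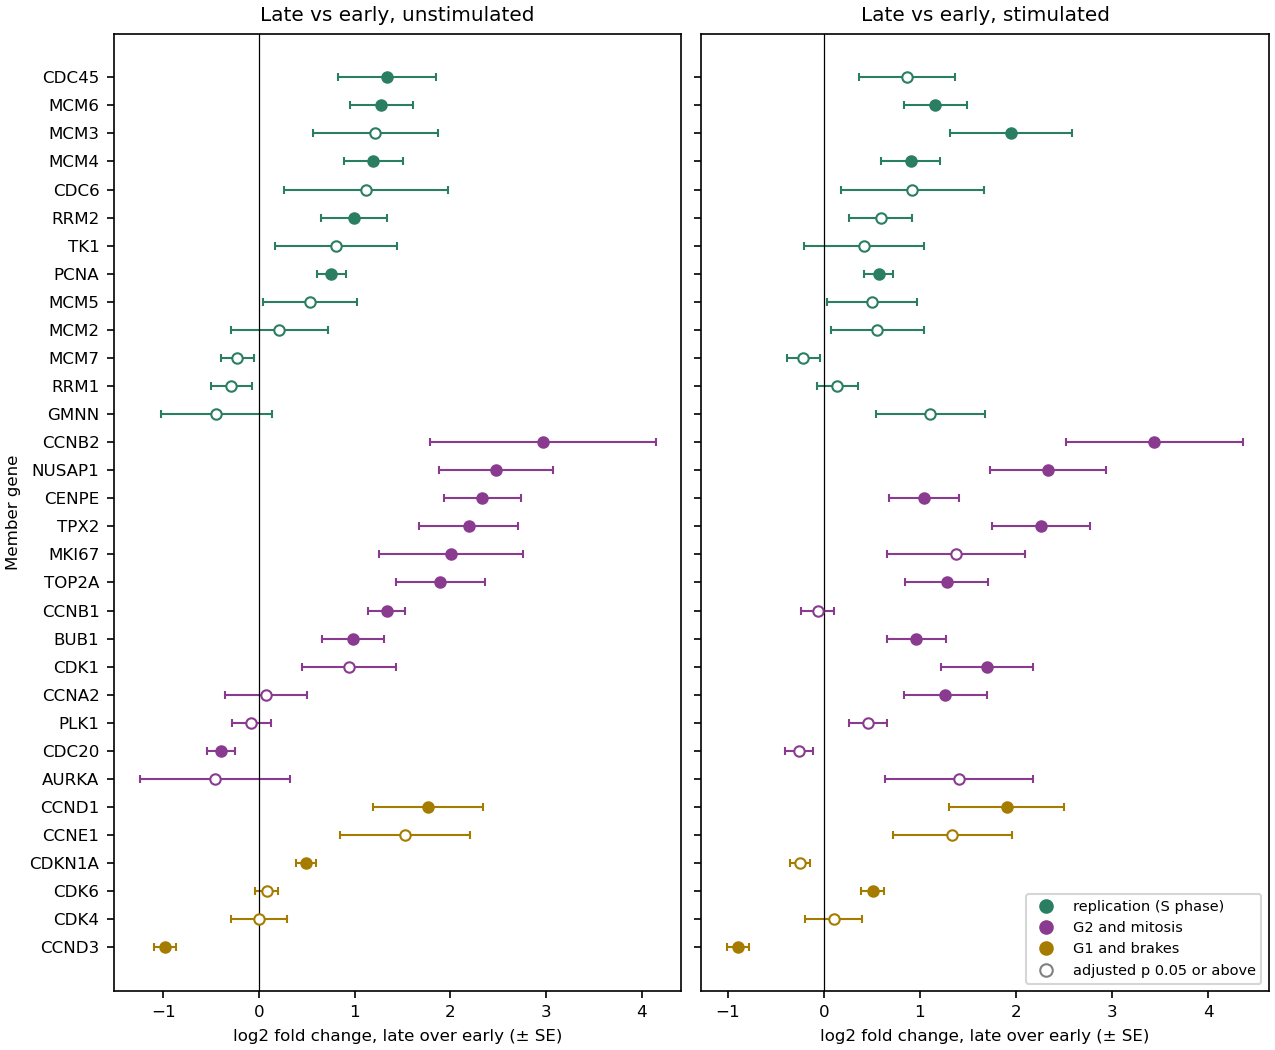
Log2 fold change of late over early (horizontal axis, with SE) for the 32 tested members (rows), in unstimulated (left) and stimulated cells (right), coloured by role and filled where the adjusted p was under 0.05. Mitosis members reach furthest to the right on both sides, CCND3 lies to the left on both, and CCNB1 lies right of 0 in unstimulated cells only (1.33 against -0.06).

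Among G1 genes, cyclin D1 and cyclin D3 had opposite signs. CCND3, a cyclin D gene used widely in blood cells, stood at 294, 280.1 and 288 CPM at 4.5 months and 135, 120.4 and 153 CPM at 19 months without stimulus, a fall by 1.98-fold with no overlap (-0.98 ± 0.11, adjusted p = 2.49e-07). It lies on chromosome 4 from 42901916 to 43029941 of Mmul_8.0.1, per the authors' deposited table. CCND1, by contrast, stood at 0.64, 0.813 and 0.917 CPM early and 1.79, 1.9 and 4.01 CPM late and rose (1.77 ± 0.58, adjusted p = 0.0159). It lost its call without late unstimulated library 3 and with the abundance trend removed (adjusted p from 0.00677 to 0.279 over 19 alternatives). CDKN1A, which encodes the CDK inhibitor p21, was abundant throughout. It stood at 3365, 3397 and 3269.9 CPM early and 4365, 4348 and 4519.7 CPM late (0.49 ± 0.10, adjusted p = 0.000504), a rise of 1.41-fold that was called in all 19 alternatives, as was the fall of CCND3. CDKN1A could be named only through the authors' deposited table of this same comparison, which lists only genes that passed, so its call is no independent count. The G1 kinases CDK6 (0.08 ± 0.12, adjusted p = 0.629) and CDK4 (-0.00 ± 0.29, adjusted p = 0.994) and cyclin E1, CCNE1 (1.53 ± 0.68, adjusted p = 0.0766), did not pass.

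Since scarce genes as a class were higher late, the members were set beside all tested genes of like level. Between a mean of 1 and 10 CPM, 10 of 19 members were higher (52.6%) and none lower, beside 18.8% higher and 10.9% lower of all 4909 genes in that range. The median log2 fold change in the range was 1.20 for the members and 0.12 for all genes. By role, the medians there were 1.89 for 7 mitosis and 0.99 for 9 replication members. Under 1 CPM, 2 of 4 members were higher, against 65.2% of 630 genes, so those members did not exceed their class. Between 10 and 100 CPM, PCNA and CCNB1 were higher and CDC20 lower of 7 members, with 16.3% higher and 28.2% lower of 4641 genes. When each library's trend with abundance was removed before the test, 13 members passed (40.6%, beside 36.6% of all genes in that fit), 11 higher and 2 lower, and the members' median fell from 0.96 to 0.31. TPX2 was then at 1.54, adjusted p = 0.0224, CENPE at 2.22, adjusted p = 0.000138, PCNA at 0.88, adjusted p = 9e-05, and MKI67 at 0.41, adjusted p = 0.702, with the ranges over all alternatives 0.000288 to 0.0224 for TPX2, 3.16e-06 to 0.00101 for CENPE and 9.14e-06 to 0.00474 for PCNA. That alternative was chosen after seeing the data.

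**Figure D4:**
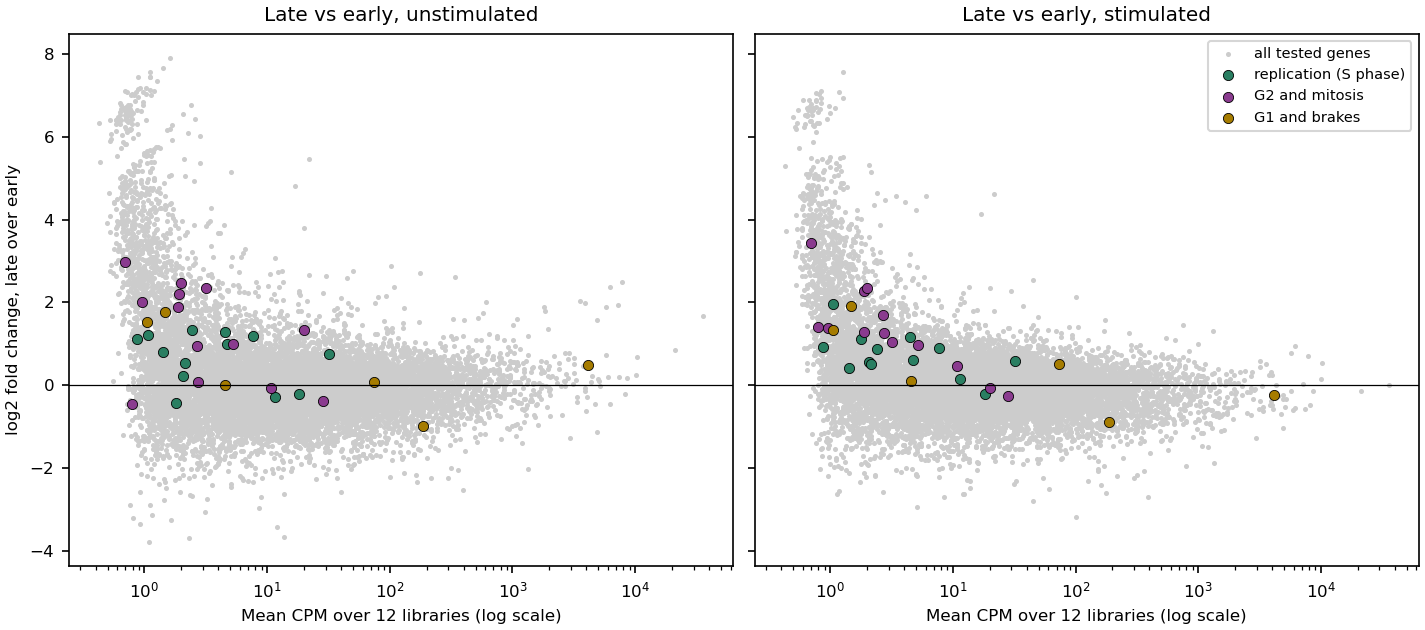
Log2 fold change of late over early (vertical axis) against mean CPM over 12 libraries (horizontal log axis) for all 11826 tested genes (grey) and the 32 tested members (coloured by role), in unstimulated (left) and stimulated cells (right). Between 1 and 10 CPM the members lie mostly above the grey cloud's middle, with medians of 1.20 against 0.12 and 1.11 against 0.22.

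In stimulated cells, 14 of 32 members were higher late and 1 was lower, where 19.1% of all genes tested were higher and 19.7% lower (38.8% together). Mitosis members rose in 8 of 13 (median 1.28), replication members in 4 of 13 (median 0.59), and G1 members in 2 of 6 with 1 lower (median 0.31, all genes 0.05). Without the early stimulated library that stood apart, 16 members passed, 5 replication and 6 mitosis genes among the higher ones, with 37% of all genes called. Without late stimulated library 3 the mitosis count was 5 and the replication count 2, and without early stimulated library 2 the replication count was also 2. Of all tested members 30.3% passed without late stimulated library 3, below the 32.6% of all genes. Without early stimulated library 2 or 3 it was 33.3%, below the 35.7% and 36.9% of all genes. Without late stimulated library 1 or 2 it was 40.6% and 45.5%, above the 30% and 32.7% of all genes. The groups did not overlap in CPM for 19 members, 18 higher and 1 lower, and for 52% of all genes tested, 33.5% higher and 18.5% lower.

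PCNA again rose with no overlap, from 29.8, 21.8 and 25.1 to 39.2, 43.5 and 42.4 CPM (0.57 ± 0.15, adjusted p = 0.00412). MCM6 stood at 1.74, 2.93 and 1.93 CPM early and 7.22, 5.36 and 4.42 CPM late (1.16 ± 0.33, adjusted p = 0.00743). MCM3, another subunit of the ring, stood at 0.652, 0.463 and 0.309 CPM early and 1.29, 1.7 and 2.7 CPM late (1.95 ± 0.64, adjusted p = 0.018), with no overlap between the groups. MCM4 stood at 5.87, 3.31 and 4.56 CPM early and 4.25, 13.1 and 10.0 CPM late (0.90 ± 0.31, adjusted p = 0.0228), and its late libraries were spread, 1 of them within the early range. MCM6 lost its call without late stimulated library 1 (adjusted p from 0.0039 to 0.0564 over 19 alternatives), MCM3 without early stimulated library 2 or 3 or late stimulated library 3 (adjusted p from 0.0129 to 0.39 over 19 alternatives), and MCM4 without early stimulated library 2 or late stimulated library 2 or 3 or with only the compared groups (adjusted p from 0.00192 to 0.201 over 19 alternatives). Without early stimulated library 1 the log2 fold changes were 0.67 (adjusted p = 0.000161) for PCNA, 1.06 (adjusted p = 0.0149) for MCM6, 2.12 (adjusted p = 0.0222) for MCM3 and 1.05 (adjusted p = 0.00537) for MCM4, and CDC45 passed, at 1.26 (adjusted p = 0.0455).

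Among mitosis genes, TPX2 stood at 0, 0.694 and 0.773 CPM at 4.5 months and 3.74, 2.87 and 2.91 CPM at 19 months with stimulus (2.26 ± 0.51, adjusted p = 0.00126). NUSAP1 stood at 0.652, 0.617 and 0.387 CPM early and 3.87, 1.7 and 3.45 CPM late (2.33 ± 0.60, adjusted p = 0.00356). Neither gene's groups overlapped, and both were called in all 19 alternatives. CDK1 stood at 0.217, 0.54 and 2.47 CPM early and 4.77, 4.18 and 4.42 CPM late and passed here (1.70 ± 0.48, adjusted p = 0.00679), also in all 19 alternatives. The late CDK1 libraries lay close together, and the early ones ranged from 1 count to 32. CCNB2 stood at 0.652, 0.0771 and 0 CPM early and 1.42, 2.48 and 1.73 CPM late (3.44 ± 0.92, adjusted p = 0.00471), losing its call with the abundance trend removed (adjusted p from 0.000616 to 0.303 over 19 alternatives). CCNA2 stood at 1.74, 1.54 and 0.85 CPM early and 3.61, 3.14 and 3.78 CPM late (1.27 ± 0.43, adjusted p = 0.0228).

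BUB1 (0.96 ± 0.31, adjusted p = 0.0152), TOP2A (1.28 ± 0.43, adjusted p = 0.0221) and CENPE (1.04 ± 0.36, adjusted p = 0.0252) rose as well. Each of these calls rested on some libraries. BUB1 lost its call without early stimulated library 2 (adjusted p from 0.00715 to 0.0544 over 19 alternatives), CCNA2 without early stimulated library 3 or late stimulated library 1 or 3 (adjusted p from 0.0129 to 0.122 over 19 alternatives), TOP2A without early stimulated library 1 or 2 or late stimulated library 3 (adjusted p from 0.0137 to 0.154 over 19 alternatives), and CENPE without early stimulated library 1 or 3 or late stimulated library 3 (adjusted p from 0.0137 to 0.121 over 19 alternatives). CCNA2, TOP2A, CENPE and MCM3 also lost it with the abundance trend removed, and TOP2A and CENPE without the low-count filter. Without early stimulated library 1 the log2 fold changes were 1.94 (adjusted p = 0.00289) for TPX2, 2.40 (adjusted p = 0.00217) for NUSAP1, 1.40 (adjusted p = 0.012) for CDK1, 5.04 (adjusted p = 0.000616) for CCNB2 and 1.39 (adjusted p = 0.0152) for CCNA2. BUB1 was then at 0.80 (adjusted p = 0.041), TOP2A at 1.21 (adjusted p = 0.0544) and CENPE at 0.85 (adjusted p = 0.0784). CCNB2 then rests on 1 count over both early libraries, and its fitted value is no bound. MKI67 stood at 0, 0.463 and 0.773 CPM early and 1.68, 1.7 and 0.971 CPM late, with no overlap, and did not pass (1.38 ± 0.72, adjusted p = 0.133, and 1.05 without early stimulated library 1). Neither did PLK1 (0.46 ± 0.20, adjusted p = 0.0718), AURKA (1.41 ± 0.77, adjusted p = 0.153), CDC20 (-0.26 ± 0.15, adjusted p = 0.164) or CCNB1 (-0.06 ± 0.17, adjusted p = 0.797).

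CCND3 fell in stimulated cells too, from 197, 200.1 and 202 to 120.3, 115 and 123 CPM (-0.89 ± 0.11, adjusted p = 1.37e-06). CCND1 rose from 0, 0.848 and 0.387 to 2.19, 2.48 and 1.62 CPM (1.90 ± 0.60, adjusted p = 0.0142), with the call lost without early stimulated library 3 and with the abundance trend removed (adjusted p from 0.0073 to 0.203 over 19 alternatives). CDK6, the partner kinase of D cyclins, rose from 49.1, 55.7 and 56.7 to 84.1, 88.8 and 82.8 CPM (0.51 ± 0.12, adjusted p = 0.00193), in all 19 alternatives. With early stimulated library 1 left out CCND3 was at -0.91 (adjusted p = 6.34e-12), CCND1 at 1.58 (adjusted p = 0.0378) and CDK6 at 0.45 (adjusted p = 0.000834). In unstimulated cells CDK6 had not passed, and the difference of the responses did not pass for CDK6 (0.43 ± 0.17, adjusted p = 0.313). CDKN1A, at 3869, 4956 and 4929 CPM early and 4156, 4306 and 4405 CPM late, did not pass (-0.24 ± 0.10, adjusted p = 0.0638). Without early stimulated library 1 it was called lower, by 0.36 on the log2 scale (adjusted p = 1.93e-05), and it was also called without late unstimulated library 3, without the low-count filter and with DESeq2 (adjusted p from 1.93e-05 to 0.953 over 19 alternatives).

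Between 1 and 10 CPM, 11 of 19 members were higher late in stimulated cells (57.9%) and none lower, beside 18.7% and 7.7% of all genes in that range. All 7 mitosis members of that range were among the 11, and 3 of its 9 replication members. With the abundance trend removed, 9 members passed in place of 15 (28.1%, below the 34.2% of all genes in that fit), 8 higher and 1 lower, and their median was 0.53. Mitosis genes that rose numbered 4 in that fit, TPX2, NUSAP1, CDK1 and BUB1.

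The comparisons of stimulation use the same libraries as those of time, so their values are given side by side and are not independent. Stimulation for 8 h changed 2 of 32 members at 4.5 months, CCNB1 and CDKN1A, both higher. Of all genes tested 7.23% were called (4.57% higher and 2.66% lower), and 6.25% of the members. That background rests on single libraries: it was 12.4% without early stimulated library 1 (members 9.09%), and 3.86, 3.73 and 3.88% without early unstimulated library 1, 2 and 3. CCNB1 stood at 7.85, 7.21 and 9.08 CPM in unstimulated and 19.1, 28.8 and 28.9 CPM in stimulated early libraries. It rose 3.89-fold with no overlap (1.96 ± 0.19, adjusted p = 4.04e-08). CDKN1A stood at 3365, 3397 and 3269.9 CPM unstimulated and 3869, 4956 and 4929 CPM stimulated (0.73 ± 0.10, adjusted p = 3.01e-05), again with no overlap. In both genes the early stimulated library that stood apart was the lowest of its group. Without it the log2 fold changes were 2.10 for CCNB1 (adjusted p = 3.78e-14) and 0.83 for CDKN1A (adjusted p = 8.24e-15), and CENPE passed as well, at 1.32 (adjusted p = 0.0368). CCNB1 was called in all 19 alternatives (adjusted p from 7.5e-20 to 0.00021 over 19 alternatives), and CDKN1A in all but the removal of the abundance trend (adjusted p from 3.63e-15 to 0.0578 over 19 alternatives). CDKN1A was named through the authors' call in unstimulated cells, and its response uses the same early unstimulated libraries. Its call here is therefore no independent count either.

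**Figure D5:**
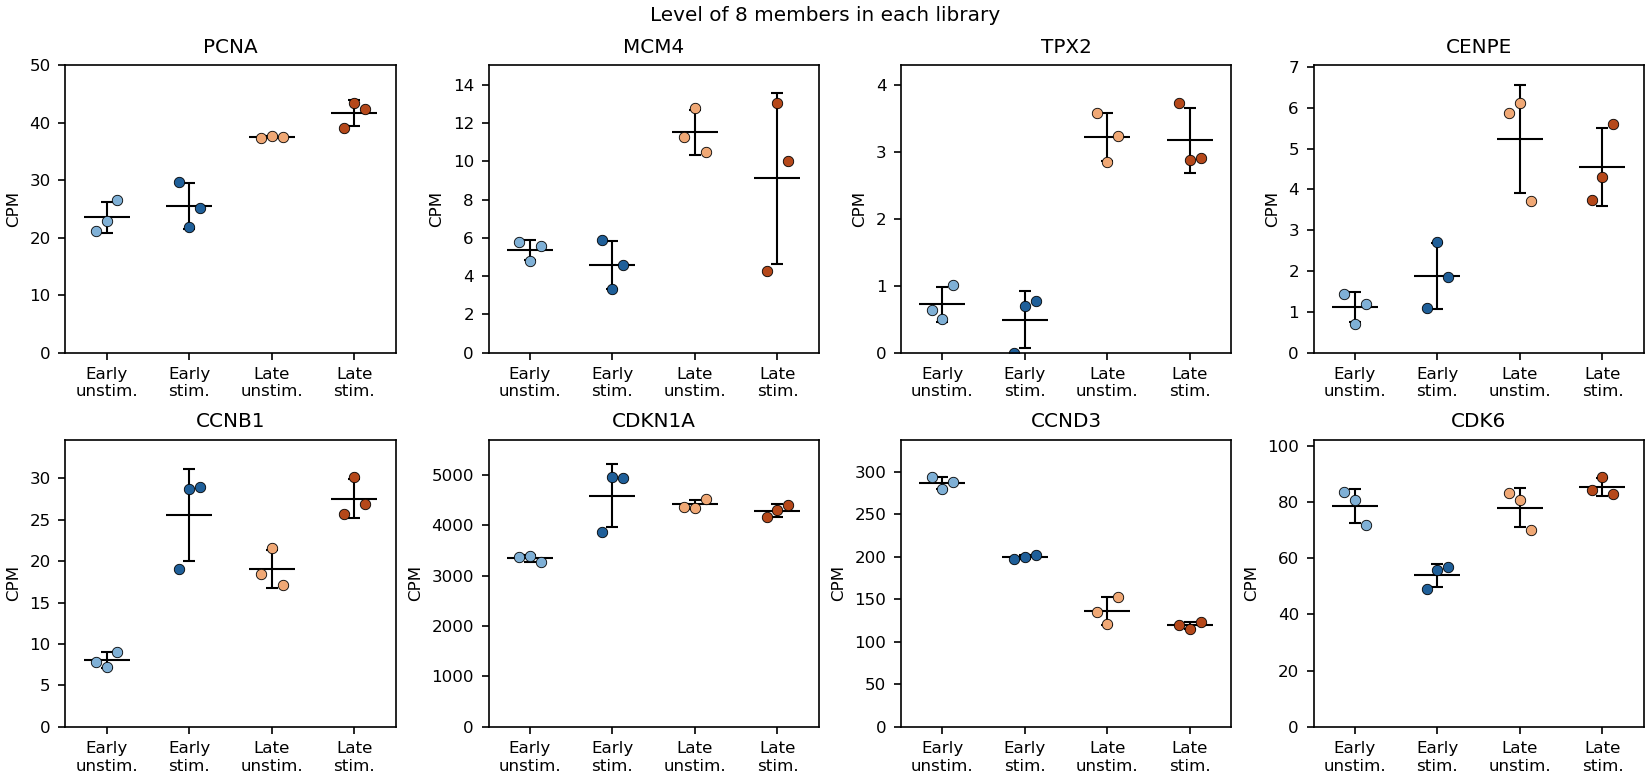
CPM (vertical axis) of 8 members in each of the 12 libraries, by group (horizontal axis), with points for libraries, a long bar for the mean and whiskers for the SD. PCNA, MCM4, TPX2 and CENPE are higher at 19 months, CCND3 is lower, and early unstimulated libraries are the lowest group for CCNB1 and CDKN1A, at 8.05 ± 0.949 and 3344 ± 66 CPM.

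No replication gene passed on early stimulation, and neither did any other mitosis or G1 gene. CCND3 stood lower in all stimulated libraries, at 197, 200.1 and 202 against 294, 280.1 and 288 CPM, as did CDK6, at 49.1, 55.7 and 56.7 against 83.4, 80.7 and 71.8 CPM. Neither passed after scaling (CCND3 -0.25 ± 0.11, adjusted p = 0.20, CDK6 -0.26 ± 0.12, adjusted p = 0.209). The TMM factors of early stimulated libraries, 0.879 to 0.909, were the lowest of all, so tested log2 fold changes on early stimulation lie higher than those of the CPM, nearer to 0 for genes lower in CPM and further from 0 for genes higher in CPM such as CCNB1. In CPM 7 tested members were lower without overlap and 2 higher, and of all genes tested 33.7% were lower and 4.44% higher (38.2% together). MKI67 was at 0.47 ± 0.81, adjusted p = 0.794, PCNA at 0.37 ± 0.15, adjusted p = 0.158 and TPX2 at -0.05 ± 0.60, adjusted p = 0.981.

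At 19 months stimulation changed none of the 32 members by edgeR's quasi-likelihood test, and none of all 11826 genes tested (0%). At an unadjusted p under 0.05 there was 1 member, CCNB1, and 527 of all genes. DESeq2 gave an adjusted p to 3 of the members, called none of them and called 14 genes in all, while the edgeR alternatives called from 0 to 29 genes, 29 without early stimulated library 1 and 10 with only the compared groups, and no member. CCNB1 stood at 18.4, 21.6 and 17.1 CPM in late unstimulated and 25.7, 30.2 and 26.9 CPM in late stimulated libraries, with no overlap (0.56 ± 0.18, adjusted p = 0.949). CDKN1A stood at 4365, 4348 and 4519.7 CPM without and 4156, 4306 and 4405 CPM with stimulus, and its groups overlapped (-0.01 ± 0.10, adjusted p = 0.998). By CPM, 4 members were higher without overlap (PCNA, CCNB1, CCNB2 and CDK1) and 1 lower (CDK4), beside 4.23% higher and 7.5% lower of all genes tested (11.7% together). Apart from CCNB1 and CDKN1A, the members had log2 fold changes from -0.33 to 1.53, the highest being that of CCNB2 (SE 0.77).

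The response to stimulation differed between the times for the same 2 members, CCNB1 and CDKN1A. Both responded less at 19 months, with a difference of responses (late minus early) of -1.40 ± 0.26, adjusted p = 0.00265 for CCNB1 and -0.74 ± 0.15, adjusted p = 0.00559 for CDKN1A. Of all genes tested 1.41% passed this test, 1.23% with a smaller and 0.186% with a larger late response. Without early stimulated library 1 these shares were 4.35%, 3.38% and 0.963%, and the members called were again 2 (6.06%). Without early unstimulated library 1 or 2, or late stimulated library 1 or 3, the share was 0.796, 0.763, 0.862 and 0.842%. For both genes the late unstimulated level was already above the early unstimulated one, while late against early did not pass in stimulated cells. Without the early stimulated library that stood apart the differences were -1.54 (adjusted p = 5.15e-06) and -0.84 (adjusted p = 3.89e-10). CCNB1 was called in all 18 alternatives (adjusted p from 5.15e-06 to 0.0186 over 18 alternatives). CDKN1A was called in all but the removal of the abundance trend, where the difference was -0.36, adjusted p = 0.377 (adjusted p from 3.89e-10 to 0.377 over 18 alternatives). Its difference is not independent of how it was named, since the authors' call used the same unstimulated libraries. The other 30 members did not pass.

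The 10 members too scarce for the test held from 17 to 76 counts each over all 12 libraries. Those with most, CCNE2 (cyclin E2), CENPF and TYMS, stood under 3 CPM in every library. KIF11, the motor that parts the spindle poles, had 0 counts over the early unstimulated, 8 over the early stimulated, 1 over the late unstimulated and 18 over the late stimulated libraries. BIRC5, survivin of the chromosomal passenger complex, had 0, 3, 7 and 7 counts in the same order. BUB1B, of the spindle checkpoint, had 3, 3, 17 and 16. TYMS, thymidylate synthase, with 30, 5, 15 and 12 counts, and AURKB, with 12, 5, 3 and 7, did not share this lean without stimulus. In stimulated cells both stood higher late without passing, at log2 fold changes of 1.26 and 0.28 in the fit without the low-count filter. Tested by edgeR without the low-count filter, CCNE2, BIRC5 and BUB1B of the 10 were higher late in unstimulated cells (adjusted p = 0.0443, 0.0398 and 0.0366) and CCNE2 in stimulated cells (adjusted p = 0.0356). In that fit 15.2% of 26369 genes were higher and 9.65% lower in unstimulated cells, and 12.5% and 9.32% in stimulated cells.

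Other genes of the same machinery were taken from lists chosen for their function. Of 33 tested further replication genes, 9 rose and 3 fell late in unstimulated cells (median 0.30) and 8 rose and 1 fell in stimulated cells (median 0.57). The 42 genes of that list with a row summed without stimulus to 244 to 290 CPM early and 274 to 293 CPM late, with overlap. With stimulus they summed to 174 to 200 CPM early and 254 to 262 CPM late. The shares called, 36.4% and 27.3%, lay below those of all genes tested, 40.7% and 38.8%. WDHD1, a replisome adaptor, was at 2.87 (adjusted p = 0.000172), UHRF1, which carries DNA methylation through replication, at 1.42 (adjusted p = 0.000177) and POLA1, of the primase complex, at 3.13 (adjusted p = 0.000317). In stimulated cells POLE3, a polymerase epsilon subunit, was at 0.78 (adjusted p = 0.000156) and MCM8 at 1.78 (adjusted p = 0.00158), while POLD1, the catalytic subunit of polymerase delta, was at -0.84 (adjusted p = 0.0027). On early stimulation WDHD1 (1.87) and UHRF1 (0.87) rose, with adjusted p of 0.0407 and 0.0493, and at 1.88 (adjusted p = 0.0345) and 1.00 (adjusted p = 0.00982) without early stimulated library 1. For late against early in stimulated cells, POLE3, MCM8 and POLD1 were at 0.66, 1.60 and -0.68 without it.

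Of 23 tested further mitosis genes, 10 rose and 1 fell late in unstimulated cells (median 0.97) and 9 rose and 0 fell in stimulated cells (median 0.68). The shares called were 47.8% and 39.1%, against 40.7% and 38.8% of all genes tested. With the abundance trend removed they were 39.1% and 26.1%, against 36.6% and 34.2% of all genes. CCNF, cyclin F, stood at 23.7, 18.6 and 21.3 CPM at 4.5 months and 40.4, 46.4 and 42.6 CPM at 19 months without stimulus (1.13 ± 0.16, adjusted p = 5.64e-06). It rose on early stimulation to 45.6, 31.9 and 33.6 CPM (1.07 ± 0.16, adjusted p = 5.58e-05) and its response was smaller late (-0.99 ± 0.22, adjusted p = 0.0178). Early stimulated library 1 was its highest, and without it the response was 0.90 (adjusted p = 1.88e-06) and the difference -0.82 (adjusted p = 0.00301). MELK, a kinase of cycling cells, had 5 counts over the early and 67 over the late unstimulated libraries (4.36 ± 0.65, adjusted p = 1.05e-05), and SGO1, which protects sister chromatid cohesion, had 3 and 36 (4.16 ± 0.86, adjusted p = 0.000423). In stimulated cells SMC4, a condensin subunit (1.19 ± 0.20, adjusted p = 6.58e-05), PTTG1, securin (0.93 ± 0.22, adjusted p = 0.00145), and MELK (2.85 ± 0.67, adjusted p = 0.00171) were higher late. The phosphatase genes CDC25B (-1.18 ± 0.18, adjusted p = 5.36e-05) and CDC25A (-1.60 ± 0.44, adjusted p = 0.0247), which activate CDKs, fell on early stimulation. With early stimulated library 1 left out, SMC4, PTTG1 and MELK were at 0.98, 0.88 and 2.87, and CDC25B and CDC25A at -1.30 (adjusted p = 6e-08) and -1.35 (adjusted p = 0.0407).

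Regulators of the G1 gate were taken likewise. Of 15 tested RB, E2F and DREAM genes, 5 rose and 4 fell late in unstimulated cells and 5 rose and 3 fell in stimulated cells. The shares called were 60% and 53.3%, against 40.7% and 38.8% of all genes tested, which also moved both ways. With the abundance trend removed they were 33.3% and 40%, against 36.6% and 34.2% of all genes. E2F7, a repressor E2F, rose from 26.4, 25.6 and 25.1 to 57.3, 59.7 and 48.9 CPM (1.20 ± 0.14, adjusted p = 2.4e-07), MYC was at 0.59 ± 0.12, adjusted p = 0.000312 and RB1, the retinoblastoma gene, at 0.75 ± 0.19, adjusted p = 0.00318. In stimulated cells RB1 was at 0.91 ± 0.19, adjusted p = 0.000642, TFDP1, the partner of E2F factors, at -0.96 ± 0.24, adjusted p = 0.00265 and E2F4 at -0.47 ± 0.12, adjusted p = 0.00416. On early stimulation MYC was at 0.63 ± 0.12, adjusted p = 0.000784, RBBP4, an RB-binding chromatin factor, at -0.42 ± 0.13, adjusted p = 0.0386 and E2F7 at 0.46 ± 0.14, adjusted p = 0.0404. Leaving out early stimulated library 1, these were 0.61, -0.32 and 0.52, and RB1, TFDP1 and E2F4 0.65, -0.998 and -0.33 for late against early in stimulated cells.

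From a further list of CDK inhibitors and stress-response genes, CDKN2C, the CDK4 and CDK6 inhibitor p18, was at 2.47 ± 0.66, adjusted p = 0.0040, and BAX, which promotes apoptosis, at -1.36 ± 0.21, adjusted p = 1.29e-05 in unstimulated cells. SESN2, a stress-induced sestrin, was at 0.41 ± 0.12, adjusted p = 0.00702 there. In stimulated cells SESN2 was at -0.56 ± 0.12, adjusted p = 0.00062 and BAX at -0.98 ± 0.20, adjusted p = 0.000407. SESN2 rose on early stimulation (1.07 ± 0.12, adjusted p = 5.41e-07) and responded less at 19 months (-0.97 ± 0.17, adjusted p = 0.00108). Without early stimulated library 1 these were 0.97 (adjusted p = 1.45e-13) and -0.86 (adjusted p = 1.45e-07), and SESN2 and BAX were at -0.47 and -0.81 for late against early in stimulated cells.

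The authors' deposited tables, which list only genes they called, hold 11 of the 42 members for unstimulated cells, 10 of them higher late, among 5229 genes of which 3144 were higher. For stimulated cells the authors' deposited table holds 9 members, 8 of them higher, among 3985 genes of which 2177 were higher. In the authors' deposited table for unstimulated cells CCNB1 is at 1.35 (adjusted p = 1.8e-06), TPX2 at 2.24 (adjusted p = 0.00413) and CCND3 at -0.97 (adjusted p = 1.32e-19). For stimulated cells the authors' deposited table gives TPX2 at 2.35 (adjusted p = 0.00588), CDK1 at 1.79 (adjusted p = 0.0251) and CDK6 at 0.51 (adjusted p = 0.00501). The authors' deposited tables hold all of these with the sign given above. Of the members called here in unstimulated cells, they do not hold MKI67, BUB1, RRM2, CDC45, CCNB2 and CDC20. Of those called in stimulated cells, they do not hold MCM3, MCM4, TOP2A, CENPE, CCNA2 and CCND1. They place TPX2 on chromosome 10 from 32275686 to 32338226, CENPE on chromosome 5 from 101963212 to 102052398, CDK6 on chromosome 3 from 117914251 to 118144330 and CDKN1A on chromosome 4 from 37612941 to 37623662 of Mmul_8.0.1.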

How the data were processed

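The authors deposited a table of raw gene counts, whole numbers with no scaling, for 12 libraries prepared by SMART-Seq v4 and Nextera XT, per the labels' protocols, a chemistry without strand marks. Reads of overlapping genes and close gene copies may therefore be shared. The submitters' processing notes name bcl2fastq and build Mmul_8.0.1. Which aligner and counter were run was not given in the sources used here. The authors' deposited comparison tables give log2 fold changes (late over early) with standard errors in log2, a test score, a p-value with its adjusted p-value and a mean normalized signal (baseMean). All 12 count columns were mapped to samples by their labels.

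Counts were tested with edgeR 4.0.16 in R 4.3.3 (quasi-likelihood F test, robust, TMM, filterByExpr by group, 1 coefficient per group over 12 libraries), which left 11826 genes, with Benjamini-Hochberg adjustment over all of them. Standard errors were derived by dividing each absolute log2 fold change by the root of its F statistic. Alternatives were RLE and upper-quartile factors, no low-count filter, DESeq2 1.42.0, only the compared groups, a replicate block, each library left out and, added later, removal of each library's loess trend with abundance (span 0.3, limma 3.58.1). The test was checked on simulated counts, with changes set only in some genes above 1 CPM and a spread common to all genes. That check does not cover scarcer members or a background in which many genes change. Promoter and protein sequences were not used here. The protocol names no molecular identifiers, so counts are of reads, not of independent molecules. Members, roles, lists and tests were chosen with earlier results of these data known. Values per library are given for fixed main members and for up to 6 called members per role and comparison, and up to 3 called genes per further list, of which 1 gene and its list's counts are not reported here.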

Additional observations from a re-analysis of the deposited data

Results flagged for a closer look

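The stimulation response differed between 4.5 and 19 months in the test of the difference itself for 2 of the 32 tested members (edgeR quasi-likelihood test, Benjamini-Hochberg over all 11826 genes). For CCNB1 the late minus early response was -1.40 ± 0.26, adjusted p = 0.00265, with responses of 1.96 early and 0.56 late. For CDKN1A it was -0.74 ± 0.15, adjusted p = 0.00559, with responses of 0.73 early and -0.01 late. CDKN1A was named only through the authors' late against early call in the same unstimulated libraries, so its difference is not independent of that choice. Early stimulated library 1 was the lowest of its group for both genes, at 19.1 CPM of CCNB1 and 3869 CPM of CDKN1A, and without it the differences were -1.54 and -0.84.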

How the results depend on the processing

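Of the members called, 10 of 17 for late against early in unstimulated cells, 6 of 15 in stimulated cells, 1 of 2 for early stimulation and 1 of 2 for the difference of responses were called in every alternative that gave them a value. No called value changed sign. With the abundance trend removed, 9 members were called for late against early in stimulated cells (4 mitosis members higher), 1 for early stimulation and 1 for the difference of responses. Of all genes 34.2%, 6.24% and 1.04% were called in that fit, beside 28.1%, 3.125% and 3.125% of the members. Leaving out 1 library at a time gave 3 to 5 replication members higher in unstimulated and 2 to 5 in stimulated cells, and 5 to 8 mitosis members higher in stimulated cells. Each role had 13 tested members. Of all genes 17.8 to 26% were higher in unstimulated and 14.5 to 19.8% in stimulated cells in those fits. The other counts stayed within 1.5 times. With upper-quartile factors, which moved the median of all genes from 0.02 to 0.15 in unstimulated and from 0.05 to 0.15 in stimulated cells, 16 members were called in either comparison (50%). The shares of all genes called in that fit were 41.3% and 40%. Of all calls, the share higher late was then 63.3% in place of 51.3% in unstimulated and 61% in place of 49.3% in stimulated cells. DESeq2 called 14 of 42 members in unstimulated cells (33.3%, beside 32.5% of all genes), 13 higher and 1 lower. In that fit 20.9% of all genes were higher and 11.6% lower. In stimulated cells DESeq2 called 16 members (38.1%, beside 28.7% of all genes), 14 higher and 2 lower. There 16.8% of all genes were higher and 12% lower. With the replicate block, 15 members were called in unstimulated and 15 in stimulated cells for late against early, 2 for early stimulation and 2 for the difference. These were 46.9, 46.9, 6.25 and 6.25% of the members, beside 38.9, 36.8, 6.15 and 0.964% of all genes. Same-numbered libraries did not deviate together (correlations from -0.0855 to 0.0968 over 18 pairs, 3 of 12 libraries closest to their own number), so the numbers were not taken as pairs. Members under 1 CPM rest on few counts, and differences among them may not be detectable at this depth.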
